A study of Mus musculus with 18 samples.

Results

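Monocyte-derived macrophages of the leptomeninges were compared with host microglia across all measured genes, in 4 libraries of each, 8 of the 18 libraries of the series. The libraries were chosen by their sample labels and not by an expression value. The gene lists used below were chosen with earlier results of these data known. The groups differ in origin and in compartment at once, and a difference between them cannot be told apart as an effect of one or the other. Monocyte-derived microglia, with 4 libraries, share the origin of the first group and the compartment of the second. They are placed between both groups only to show which genes lay nearer the host level in parenchymal cells of the same origin.

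Microglia are the macrophages of the brain parenchyma. They arise from the yolk sac, renew themselves locally, and depend on CSF1 and TGF-beta signals and on the transcription factor SALL1 for their identity. Border-associated macrophages line the leptomeninges, perivascular spaces and choroid plexus, carry scavenger receptors such as CD206, CD163 and LYVE1, and in part present antigen on MHC class II. After irradiation and marrow transplantation, cells from the blood can enter both niches.

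The recipients were wild-type C57BL6/C mice that had been lethally irradiated, so that the host microglia of every library had been exposed to irradiation too. The marrow donors carried Ms4a3-Cre, a Cre driver active in granulocyte-monocyte progenitors, together with the R26-TdTomato reporter and a Cx3cr1-gfp allele. Cells were sorted 32 weeks later as host (no colour) or monocyte-derived (GFP+ and TdTomato+), up to 100000 per library. The host gate is thus defined by the absence of colour, the donor cells carry a gfp allele of Cx3cr1, and the Ms4a3-Cre lineage also includes neutrophils. Leptomeningeal cells were washed from the brain surface, whereas microglia came from a second enzyme digestion of the remaining brain followed by Percoll, so that the preparation differs with the compartment. Age and sex are not given in the labels. The labels do not state that replicates are separate mice, so p-values measure the spread between these samples, which may be technical.

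Expression was measured as unique molecular identifier (UMI) counts by bulk MARS-seq, a method that reads the 3' end of polyadenylated transcripts. Total counts were 1230127 to 2440234 per host library, 1066281 to 1809700 per leptomeningeal library and 1072911 to 1507199 per library of monocyte-derived microglia. Levels are given as CPM, counts divided by the composition-scaled library size and set to a total of 1e6, in the order of replicates 1 to 4. Differences are log2 fold changes from edgeR's quasi-likelihood test, written with their standard error (SE) where given, and a gene is called when its Benjamini-Hochberg adjusted p is under 0.05. In bulk RNA, fewer cells of a type and less RNA per cell cannot be told apart.

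The labels were first checked against marker genes. Sall1 (chr8:89027235-89044162 in mm10, protein-coding), the transcription factor of microglial identity, was at 318, 338, 316 and 332 CPM in the host libraries. In leptomeningeal macrophages it was at 9.13, 2.2, 6.38 and 8.08 CPM, a log2 change of -5.56 ± 0.24 (adjusted p = 5.17e-20). Tmem119 (chr5:113793729-113800516), a membrane protein used to mark microglia, was at 2845, 2040, 2598 and 2945 CPM in host cells and at 256, 205, 218 and 184 in leptomeningeal cells (-3.59, adjusted p = 4.06e-18). No leptomeningeal library reached the lowest host library for either gene. Mrc1 (chr2:14229392-14332057), which encodes the mannose receptor CD206, had the opposite order, with 28.6, 25.5, 24.2 and 28.1 CPM in host cells and 1179, 1132, 1209.6 and 1245 in leptomeningeal cells (5.49, adjusted p = 1.01e-22). Ms4a7 (chr19:11321039-11336146), a membrane protein of marrow-derived and border macrophages, was at 4.29, 12.3, 5.62 and 2.01 CPM in host cells and 458, 567, 438 and 456 in leptomeningeal cells (6.19, adjusted p = 1.71e-20). Cd74, the invariant chain that escorts MHC class II molecules, was at 47.2, 49.6, 53 and 48.2 CPM in host cells and at 13932, 9237, 13073 and 10042 in leptomeningeal cells (7.86, adjusted p = 9.58e-24). All 5 markers thus separated both groups without overlap, in the direction that the labels give. Separation alone was common, since 45.8% of all tested genes did not overlap.

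**Figure D1:**
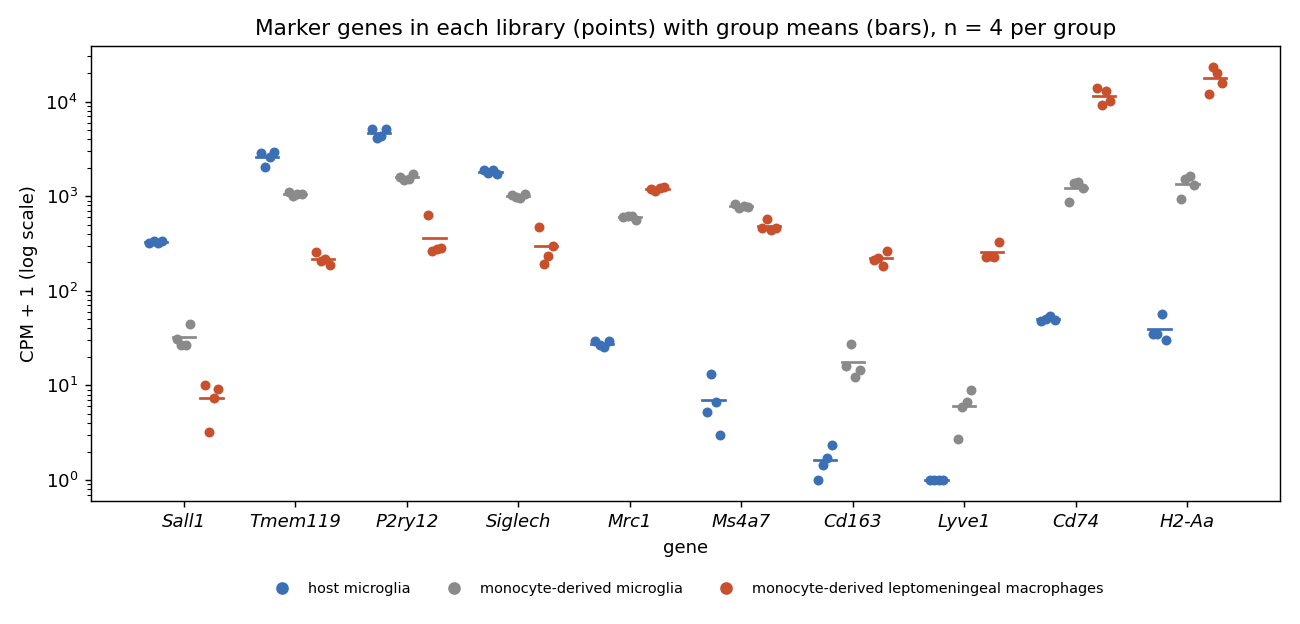
CPM + 1 on a log axis for 10 marker genes in each library (points), with the mean of each group (bars, n = 4), in host microglia, monocyte-derived microglia and leptomeningeal macrophages. Sall1, Tmem119, P2ry12 and Siglech fall from left to right within each gene, and Mrc1, Cd163, Lyve1, Cd74 and H2-Aa rise, while Ms4a7 is highest in monocyte-derived microglia at 820.2, 754, 788 and 759 CPM.

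The leptomeningeal libraries also held transcripts of other cells, which bears on every comparison that follows. The neutrophil genes S100a9 and S100a8, which encode both chains of calprotectin, were at 481, 1020.2, 852 and 1178 and at 246, 430.5, 418 and 477 CPM in leptomeningeal libraries and at 0 in all host libraries. With 3 counts over the host group as the floor, S100a9 was at least 2308-fold higher. Of 9 tested neutrophil genes, 8 were higher, against 24.1% of all tested genes. The exception was the colony-stimulating factor receptor gene Csf3r (-2.05, adjusted p = 7.27e-12), which host microglia had at 299.6 CPM. The granule genes Ngp, Camp and Lcn2 and the matrix metalloprotease gene Mmp9 were likewise at 0 in every host library, against means of 344 ± 143, 328 ± 107, 122 ± 46.9 and 137 ± 21.1 CPM (SD, n = 4).

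Lymphocyte and stromal transcripts followed the same direction. Each count here is read against the shares of all tested genes, 24.1% called higher and 22.5% lower. Of 20 T and NK cell genes, 20 were higher, with summed levels of 1462 to 2528 CPM in leptomeningeal libraries against 112 to 175 in host libraries. Cd8a, a co-receptor of cytotoxic T cells, was at 67.5, 73.6, 61.2 and 133 CPM against 4.29, 4.09, 3.51 and 5.36. Igkc, the kappa light chain of antibodies, was at 401, 80.2, 545 and 529 CPM against 0.716, 0, 0 and 0, a count ratio of 3365 (95% interval 603 to 132958). Leptomeningeal fibroblast and mural genes were higher for 8 of 8. Ptgds, the prostaglandin D synthase of arachnoid and pial cells, made up most of their sum at 2429.7, 2931, 3193 and 2014 CPM against 11.5, 30.9, 22.1 and 24.8. Monocyte genes were higher for 14 of 14, summed at 2433 to 2928 against 263 to 361 CPM. Mast cell genes summed to 4.92 to 113 CPM in leptomeningeal and 0.351 to 1.43 in host libraries. Of the other lists, B and plasma cell genes were higher for 4 of 5, and dendritic cell genes for 7 of 10 with 2 lower. Of 5 astrocyte genes, 2 were higher and 2 lower, against 2 and 1 of 5 oligodendrocyte genes and 1 and 2 of 3 endothelial genes. With so few members, these lists cannot be told apart from the shares of all genes. Of 3 neuron genes only Thy1, also a T cell gene, was called, and of 5 erythroid and platelet genes only Gp9, which was lower.

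Host libraries carried a signal of their own from the choroid plexus. Ttr, the thyroid hormone carrier of choroid plexus epithelium, was at 1938, 3267, 2267 and 2593 CPM in host libraries. In leptomeningeal libraries it was at 9.13, 85.7, 14.7 and 190.5 (-5.07, adjusted p = 0.00431). All 4 of 4 tested genes of its list were lower in leptomeningeal libraries, against 22.5% of all genes. The part that transcripts of other cells have in the results below was not tested. A leptomeningeal library stood apart in the opposite sense: replicate 1 had the highest level of the 4 for 23 of 35 homeostatic microglia genes (65.7%), against 29.5% of all tested genes. P2ry12 was at 626, 265, 275 and 284 CPM in the leptomeningeal libraries, with replicate 1 above the others. Replicate 4 was highest for 15 of 20 T and NK cell genes and for 7 of 9 neutrophil genes, against 2078 of all 10597 tested genes.

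**Figure D2:**
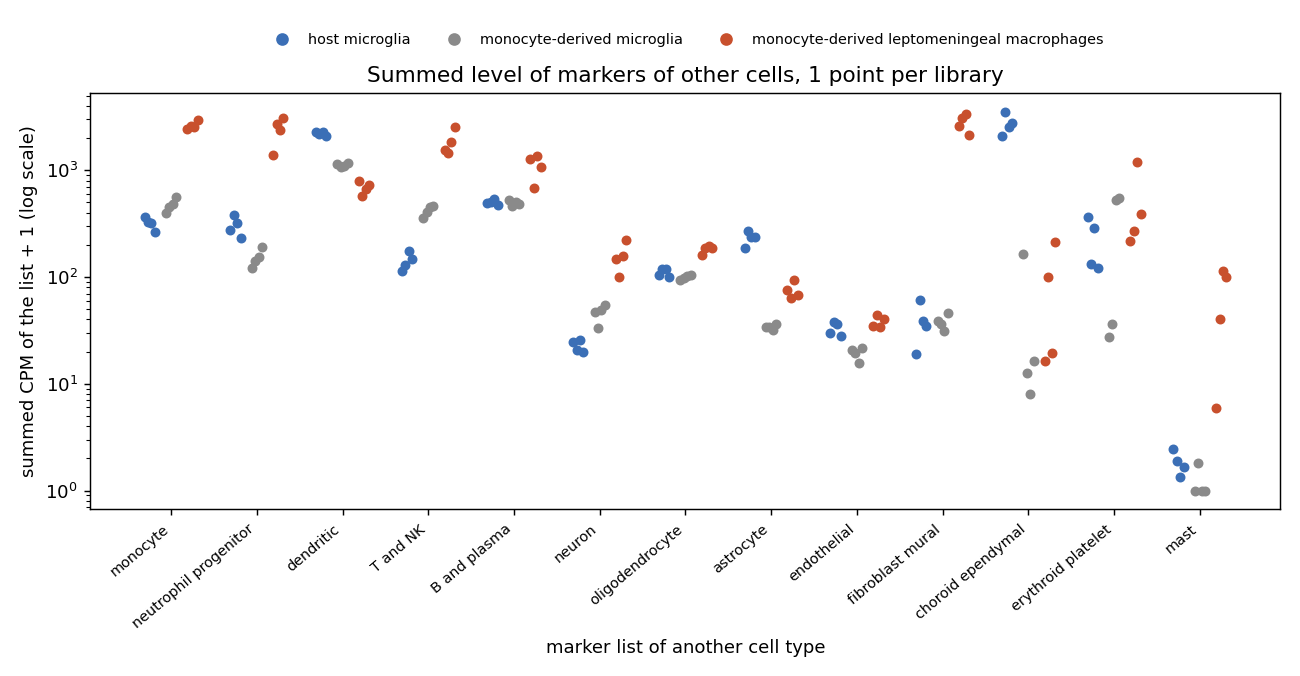
Summed CPM + 1 (log axis) of the marker lists of 13 other cell types, with 1 point per library for host microglia, monocyte-derived microglia and leptomeningeal macrophages. Monocyte, neutrophil, T and NK cell, and fibroblast and mural lists are highest in the leptomeningeal libraries, and the choroid list is highest in host libraries, at 2076 to 3521 CPM. The dendritic list is highest in host libraries because it holds Siglech and Fscn1, at 1805 and 341 CPM there.

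Of 10597 tested genes, 4941 were called between leptomeningeal macrophages and host microglia (46.6%). The calls divided into 2558 higher (24.1%) and 2383 lower (22.5%) in leptomeningeal cells. With library totals in place of composition scaling the split was 1723 higher and 4005 lower, and the median log2 change of all genes moved from -0.0040 to -0.34. All differences here are relative to the first of these medians. At least 2-fold changes were called for 25.1% of genes, 1587 higher and 1078 lower. Changes of at least 16-fold were more often higher, with 356 genes against 77 lower. The libraries of both groups did not overlap for 45.8% of all tested genes. A list of genes has to be read against these shares. The lists were chosen with earlier results of these data known, so their shares describe the lists and are not independent evidence.

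The highest genes were a mix of border macrophage genes and transcripts of other cells. The 10 with the largest called increase were S100a9, S100a8, Ngp, Camp, Lyve1, Cd209f, Ccl8, Igkc, Mmp9 and Lcn2, of which 6 are the neutrophil genes above and 1 is an antibody gene. Lyve1 (chr7:110850607-110863239), the hyaluronan receptor of border macrophages and lymphatic vessels, was at 226, 234, 226 and 327 CPM and at 0 in all host libraries, at least 676-fold higher. Cd209f, a lectin of the DC-SIGN family, was at 185, 307, 208 and 237 CPM and also at 0 in host libraries, at least 600.1-fold higher. Ccl8, a chemokine for monocytes and T cells, was at 632, 445, 754 and 623 CPM against 0, 0.455, 0.351 and 0, a count ratio of 2514 (95% interval 695 to 20767). The 10 lowest genes included several microglial genes. Slc2a5, the fructose transporter of microglia, was at 597, 603, 659 and 571 CPM in host and 21.1, 4.39, 7.65 and 14.1 in leptomeningeal cells (-5.61, adjusted p = 9.03e-11). Ecscr, an endothelial and microglial surface protein, had a log2 change of -5.65, the uroplakin gene Upk1b one of -6.34, and Mymk, known as the muscle fusion gene myomaker, was at 63.7, 92.8, 70.2 and 44.2 CPM in host and 0.703, 0, 0.638 and 0 in leptomeningeal cells, a count ratio of 189.7 (95% interval 52.3 to 1570.5). The others were Mlph, a melanosome transport adaptor (-5.81), the navigator gene Nav3 (-5.33), the zinc finger gene Sall3 (-5.54), the claudin-like gene Tmem204 (-5.47), the platelet glycoprotein gene Gp9 (-5.50) and Sall1.

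**Figure D3:**
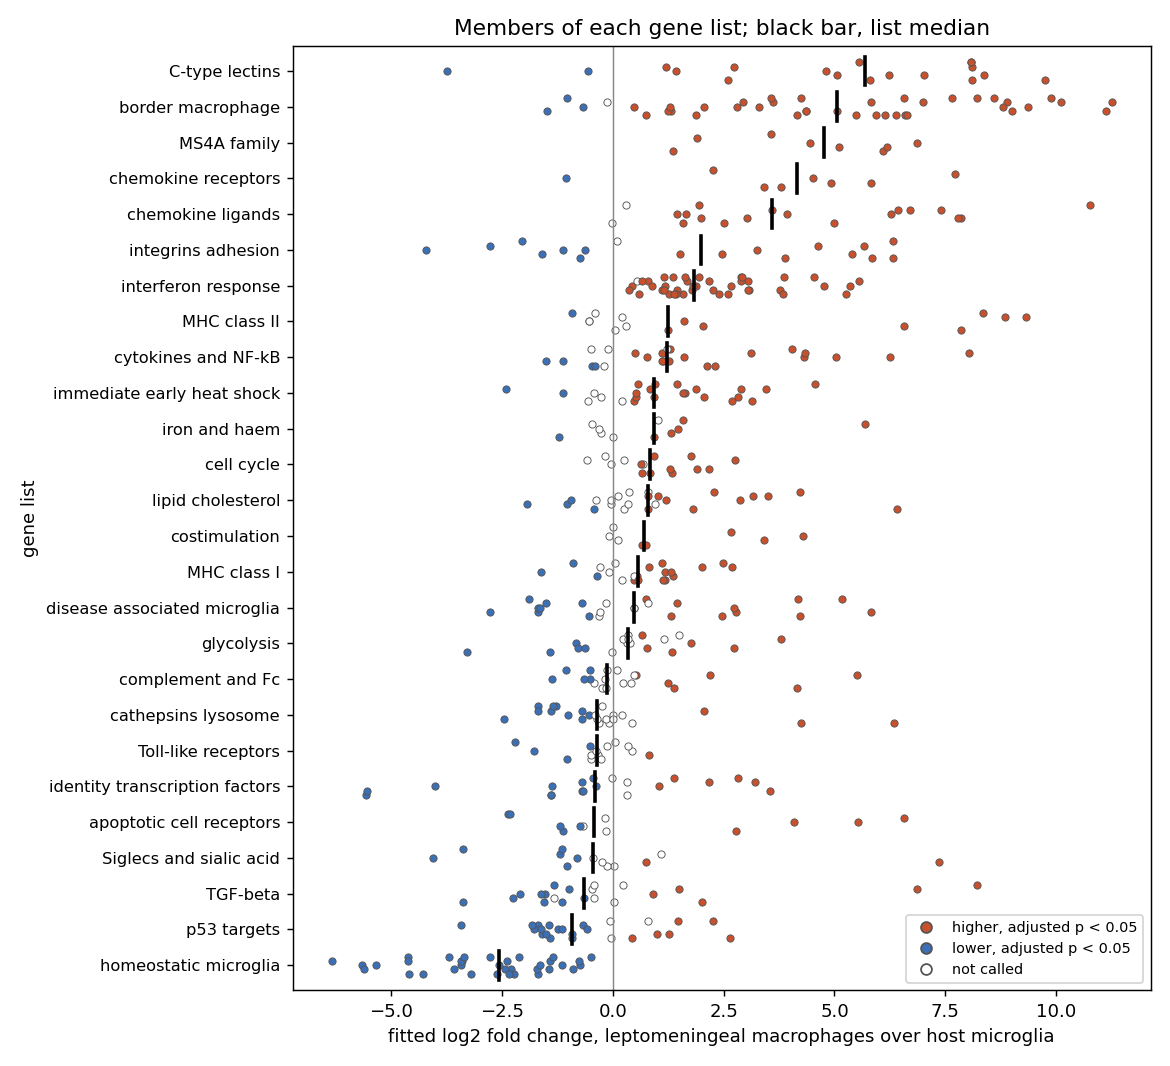
Fitted log2 fold change of every tested member of 26 gene lists (points), leptomeningeal macrophages over host microglia, ordered by the list median (black bars), with called members filled in orange (higher) or blue (lower). Homeostatic microglia genes lie on the left of 0 for 35 of 35 members, and the interferon response lies on the right with 41 of 42 called higher. Among all tested genes, 24.1% were called higher and 22.5% lower. Genes at 0 in the host libraries are drawn at fitted values, which depend on the prior count.

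Homeostatic microglia genes were lower in leptomeningeal macrophages for all 35 tested members (34 without leptomeningeal replicate 1), against 22.5% of all genes. Their median log2 change was -2.58, against -0.0040 for all genes. The changes ran from -6.34 to -0.48. P2ry12, the ADP receptor that steers microglial processes, was at 5096, 4126, 4379 and 5150.1 CPM in host cells against the leptomeningeal values above (-3.69, adjusted p = 2.21e-15). Sparc, a secreted matrix protein, was at 6937, 6141, 5364 and 5694 CPM in host cells and 429, 150.4, 191 and 208 in leptomeningeal cells (-4.62, adjusted p = 1.88e-13). Replicate 1 was the highest leptomeningeal library for both genes, and it stayed below every host library. Without it, P2ry12 had a log2 change of -4.08 and Sparc one of -5.02. Adgrg1, an adhesion receptor for collagen III, had a log2 change of -4.27, and Selplg, the P-selectin ligand, one of -3.42. Smaller changes were found for Csf1r, the receptor for CSF1 and IL-34, at 4657, 5002, 4707 and 4868 against 2822, 3139, 4259 and 3558 CPM (-0.48, adjusted p = 0.0145), a call lost without leptomeningeal replicate 1 or 2 (adjusted p = 0.0624 and 0.0508), and for Fcrls, an Fc receptor-like gene (-0.75, adjusted p = 0.000152). Cx3cr1, the fractalkine receptor, fell from 3904 ± 507 to 799 ± 187 CPM (-2.29, adjusted p = 1.42e-12) in cells that carry the gfp allele of this gene, and the part of that allele was not tested.

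Transcription factors of microglial identity changed in both directions, with 11 lower (55%) and 6 higher (30%) of 20, against 22.5% and 24.1% of all genes. Besides Sall1 and Sall3, the lower factors included the homeobox gene Hhex, at 144, 142, 137 and 111 against 49.9, 60.4, 45.9 and 47.8 CPM (-1.40, adjusted p = 2.26e-09), the TGF-beta effector Smad3 (-1.36), and Irf8, which microglia and monocytes need (-0.70). Spi1, which encodes PU.1, was at 242 ± 28.5 against 303 ± 37.8 CPM and was not called (adjusted p = 0.062), although it was called higher in fits of the 12 libraries of the 3 groups alone, of both groups alone, without the 3 shallow libraries of the other groups and without leptomeningeal replicate 2 (adjusted p = 0.00403 to 0.0355). The higher factors were Bhlhe40 and Tgif1 and the activity-induced genes Nr4a1, Egr1, Klf2 and Jun. Egr1 was at 380.1, 399.7, 454 and 304 CPM in host and 2792, 3522, 2563 and 2101 in leptomeningeal cells (2.83, adjusted p = 1.03e-13).

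Genes of border macrophages were higher for 37 of 41 tested members, 90.2% against 24.1% of all genes, and lower for 3. Their median log2 change was 5.05, or 4.36 with genes at 0 in host cells set to their lower bound. Pf4, a CXC chemokine of platelets and border macrophages, was at 4.29, 5, 5.97 and 4.02 CPM in host and 1752, 2061, 2143 and 1872 in leptomeningeal cells (8.59, adjusted p = 9.31e-24). F13a1, the coagulation factor XIII subunit, was at 827, 981, 939.8 and 1088 CPM against 0, 0.909, 0.351 and 2.01 (10.12, adjusted p = 2.64e-24). Cd163, the haemoglobin scavenger receptor, was at 209, 223, 183 and 259.8 CPM against 0, 0.455, 0.702 and 1.34 (8.22, adjusted p = 2.07e-13). Each host library was at or close to the floor of 3 counts for F13a1 and Cd163, whereas every leptomeningeal library was far above it. Cbr2, a carbonyl reductase, rose from 1.88 ± 1.54 to 1148 ± 296 CPM, and Folr2, the folate receptor beta, from 3.85 ± 0.825 to 373 ± 78.1. Stab1, a scavenger receptor that host microglia also carried, rose less, from 786, 944, 942 and 867 to 2129.7, 1875, 2492 and 2187 CPM (1.29, adjusted p = 1.64e-06). The 3 members that were lower were Slc40a1, the iron exporter ferroportin, at 124, 96.4, 109 and 128 against 66, 26.4, 24.2 and 43.7 CPM (-1.48, adjusted p = 3.12e-06), the prostaglandin dehydrogenase gene Hpgd (-0.67) and the integrin gene Itga9 (-1.04).

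The MHC class II molecules show peptides to CD4+ T cells, and their genes are switched on together by the coactivator CIITA, which is recruited to a conserved promoter module that includes a Y box with the letters ATTGG. The 150 bases before the annotated start of H2-Aa (chr17:34287824-34287973, minus strand), H2-Eb1 (chr17:34305717-34305866, plus strand) and H2-DMb1 (chr17:34153041-34153190, plus strand) are shown 5' to 3' from RefSeq promoters on GRCm38.p6, with each match to ATTGG on either strand in capitals.
H2-Aa: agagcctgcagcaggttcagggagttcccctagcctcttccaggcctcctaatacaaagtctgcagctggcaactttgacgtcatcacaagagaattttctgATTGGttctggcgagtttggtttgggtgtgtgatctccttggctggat
H2-Eb1: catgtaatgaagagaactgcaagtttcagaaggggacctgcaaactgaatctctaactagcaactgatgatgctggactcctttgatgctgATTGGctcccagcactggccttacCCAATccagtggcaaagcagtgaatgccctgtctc
H2-DMb1: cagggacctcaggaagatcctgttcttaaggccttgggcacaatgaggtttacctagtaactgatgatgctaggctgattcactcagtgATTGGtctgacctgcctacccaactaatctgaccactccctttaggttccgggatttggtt
The nearest match began 48 bases before the start in H2-Aa and 61 in H2-DMb1. H2-Eb1 held 2 matches: the nearest, 35 bases before the start, was on the opposite strand (CCAAT), and its ATTGG lay farther upstream. In the 250 bases before the start, ATTGG on either strand was found in 10 of 13 promoters of this list (12 of its 16 genes had an entry) and in 33.8% of 32851 promoters. A match is a description of the letters and not a measured site.

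The classical class II chains rose to high levels. H2-Aa was at 33.6, 33.7, 55.8 and 29.5 CPM in host libraries and at 11904, 23437, 19857 and 15869.5 in leptomeningeal libraries (8.84 ± 0.30, adjusted p = 1.01e-22). H2-Eb1 was at 10, 15, 22.1 and 14.7 and 7759.8, 11219.8, 11633 and 10264 CPM (9.31, adjusted p = 9.31e-24). Ciita, the coactivator itself, was at 0, 0.455, 5.97 and 1.34 and 210.1, 249, 291 and 216 CPM (6.56, adjusted p = 1.08e-13). No host library came near a leptomeningeal library for these genes, and leptomeningeal replicate 1 was the lowest for H2-Aa. H2-Ab1 rose from 50.3 ± 9.74 to 16651 ± 4243 CPM. The peptide exchange genes H2-DMa and H2-DMb1 were already present in host cells, at 589.5 ± 57 and 178 ± 25.9 CPM, and rose by 1.25 and 2.04 on the log2 scale. In all, 8 of 15 members were higher (53.3%, median of the list 1.25) and 2 lower (13.3%), against 24.1% and 22.5% of all genes. The lower members were H2-Oa, a brake on peptide exchange (-0.92, adjusted p = 0.0017), and the protease gene Ctss (-0.53, adjusted p = 0.0221), whose call was lost without host replicate 1 or without leptomeningeal replicates 1, 3 or 4 (adjusted p up to 0.0777). Dendritic and B cells express class II genes too. The dendritic markers Flt3, Ccr7 and Clec9a were at 29.7 ± 2.76, 21.6 ± 5.39 and 16.4 ± 5.36 CPM in leptomeningeal libraries, and their part in the class II levels was not tested.

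Costimulatory and class I genes moved less. Of 8 costimulatory ligands, 5 were higher and 0 lower, although 3 were higher with library totals in place of composition scaling. Cd83 was at 145, 142, 119.7 and 125 CPM in host and 829.8, 795, 666 and 1057 in leptomeningeal cells (2.65, adjusted p = 1.04e-11), Cd40 at 3.58, 8.19, 9.48 and 2.01 and 71, 91.1, 68.2 and 52.5 (3.40, adjusted p = 8.26e-14), and Tnfsf9, the CD137 ligand, at 7.87, 9.09, 6.67 and 6.7 and 185, 150.4, 124 and 139 (4.29, adjusted p = 3.99e-10). Each separated the groups without overlap, as did 45.8% of all tested genes. The B7 genes Cd80 and Cd86 were at 19.5 ± 5.8 and 138 ± 14.3 CPM against 21 ± 2.25 and 138 ± 19.9 in host cells and were not called (adjusted p = 0.783 and 0.999). Of 21 class I genes, 13 were higher (61.9%) and 3 lower (14.3%), with a median of 0.57. Of all genes, 24.1% were higher and 22.5% lower. The heavy chain gene H2-K1 rose from 858, 1258, 909 and 640.2 to 1974, 1781, 2193 and 2373 CPM (1.18, adjusted p = 6.62e-07), the immunoproteasome gene Psmb8 by 1.35, and the class I coactivator gene Nlrc5 by 2.02 on the log2 scale. The lower members included Mr1, which presents vitamin B metabolites (-1.62), and the chaperone gene Pdia3 (-0.89). Reads of near-identical class I genes such as H2-Q6 and H2-Q7 may be divided between copies, so single values of that family are uncertain.

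MS4A membrane proteins and C-type lectin receptors were higher almost throughout, where 24.1% of all genes were higher and 22.5% lower. All 8 of 8 tested Ms4a genes were higher (median 4.76). Ms4a6c rose from 77.3, 78.2, 67.8 and 67.6 to 787, 1119, 814 and 743 CPM (3.57, adjusted p = 6.93e-19) and Ms4a14 from 0, 1.36, 0.351 and 1.34 to 82.9, 43.9, 56.7 and 49.1 (6.10, adjusted p = 4.31e-13). Ms4a4b, which T cells also express, rose by 5.09 on the log2 scale, in libraries whose T and NK cell genes rose by a median of 4.30. Of 18 lectin receptors, 16 were higher and 2 lower, with a median of 5.68, or 5.33 with bounds for genes at 0. Clec12a, an inhibitory receptor for uric acid crystals, was at 2.86, 0, 1.76 and 0.67 CPM in host and 311, 409, 409 and 350 in leptomeningeal cells (8.08, adjusted p = 4.75e-22). Cd93, a lectin-like receptor, was at 0, 0.909, 0.351 and 1.34 and 216, 154, 217 and 221 CPM (8.11, adjusted p = 1.12e-20). Cd93 was at or under the floor of 3 counts in all 4 host libraries and Clec12a in replicates 2 and 4. Clec7a, the fungal glucan receptor dectin-1, rose from 26.8 ± 2.28 to 178 ± 18.8 CPM. Mrc2, a collagen receptor of the mannose receptor family, went the other way, from 12.2, 26.4, 18.6 and 16.1 to 2.11, 0, 1.91 and 0.673 CPM (-3.75, adjusted p = 3.71e-08), as did Clec5a (-0.56, adjusted p = 0.00409). Related Cd209 and Ms4a genes share sequence, and the division of reads among them is uncertain.

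Chemokine ligands were higher for 17 of 19 and lower for 0, against 24.1% and 22.5% of all genes. Their median log2 change was 3.59. Ccl7, which attracts monocytes through CCR2, rose from 2.86, 2.73, 5.62 and 3.35 to 626, 540.3, 764 and 757 CPM (7.41, adjusted p = 1.22e-18). Ccl2, which acts on the same receptor, rose from 55.8, 50.9, 76.5 and 79.7 to 810.1, 964, 1125 and 1089.6 CPM (3.92, adjusted p = 4.73e-07). Cxcl2, a neutrophil chemoattractant, rose from 16.5, 29.1, 18.6 and 29.5 to 1757, 2261, 1359 and 1905 CPM (6.28, adjusted p = 1.8e-07). The groups did not overlap for any of the 3 genes, nor for 45.8% of all tested genes. Ccl12 rose by 2.52 and Cxcl16, a transmembrane chemokine, by 2.00 on the log2 scale. Ccl3, a chemokine that microglia make readily, was at 537 ± 56.8 CPM in host cells and at 662 ± 20.9 in leptomeningeal cells and was not called (adjusted p = 0.156), although it was called higher in fits of the 12 libraries of the 3 groups alone, of both groups alone and without the 3 shallow libraries (adjusted p = 0.00381 to 0.0204). Neutrophil genes, which bear on the Cxcl2 and Il1b values because neutrophils express both, summed to 1387 to 3111 CPM in these libraries, and their part was not tested.

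Of 8 chemokine receptors, 7 were higher and 1 lower, against 24.1% and 22.5% of all genes. Ccr2, the receptor of classical monocytes, was at 12.2, 8.64, 7.37 and 7.37 CPM in host and 427, 474, 568 and 526 in leptomeningeal cells (5.83, adjusted p = 1.01e-22). Ccr1 rose from 21.3 ± 5.84 to 286 ± 52 CPM and Cxcr4, the CXCL12 receptor, from 2.01 ± 0.525 to 64.2 ± 5.03. Other genes of circulating monocytes were present too. Ly6c2, a surface antigen of inflammatory monocytes, was at 112, 108, 165 and 168 CPM against 2.15, 0.455, 0.702 and 1.34 (6.97, adjusted p = 9.66e-20), and S100a6, a calcium-binding protein, rose from 5.54 ± 0.996 to 266 ± 19.4 CPM (5.56, adjusted p = 3.64e-08). Whether all sorted cells carried these transcripts or few cells carried many cannot be told apart in bulk RNA.

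Type I interferon response genes were higher for 41 of 42 tested members and lower for 0, 97.6% against 24.1% of all genes, with a median log2 change of 1.84. Many of these genes are activated through the interferon-stimulated response element, a promoter element with repeats of GAAA. The 150 bases before the start of Isg15 (chr4:156200819-156200968), Ifitm2 (chr7:140955962-140956111) and Ifi207 (chr1:173741810-173741959), all on the minus strand, are shown from the same RefSeq promoters, with matches to GAAANNGAAA on either strand in capitals.
Isg15: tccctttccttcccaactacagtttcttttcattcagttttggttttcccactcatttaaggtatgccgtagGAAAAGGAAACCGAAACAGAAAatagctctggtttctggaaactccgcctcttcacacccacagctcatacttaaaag
Ifitm2: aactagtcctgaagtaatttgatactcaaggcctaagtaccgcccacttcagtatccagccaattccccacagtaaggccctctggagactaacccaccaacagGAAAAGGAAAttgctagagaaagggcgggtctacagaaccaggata
Ifi207: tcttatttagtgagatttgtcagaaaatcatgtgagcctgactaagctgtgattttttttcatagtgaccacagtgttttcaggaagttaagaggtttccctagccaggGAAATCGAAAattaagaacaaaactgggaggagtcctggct
Isg15 held 3 overlapping matches, and the others 1 each. GAAANNGAAA was found in the 250 bases before the start of 16 of 39 promoters of this list (34 of its 44 genes had an entry), and in 2.98% of 32851 promoters.

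The sizes of the interferon changes were uneven. Ifitm3, a membrane protein that blocks viral fusion, was at 47.2, 41.4, 52 and 26.1 CPM in host and 916, 988, 1144 and 860.1 in leptomeningeal cells (4.53, adjusted p = 1.27e-14), and its neighbour Ifitm2 at 7.87, 7.73, 5.62 and 5.36 and 351, 325, 275 and 297 CPM (5.54, adjusted p = 5.11e-21). Ifi207, of the PYHIN family, was at 10, 13.2, 18.6 and 6.03 and 525, 433, 505 and 503 CPM (5.26, adjusted p = 2.01e-20). For each of them the lowest leptomeningeal library was far above the highest host library. Isg15, a ubiquitin-like modifier, rose from 55.1, 66.4, 69.5 and 47.5 to 287, 199, 212 and 184 CPM (1.87, adjusted p = 6.99e-07), and Irf7, the factor that amplifies the response, by 2.59 on the log2 scale. The signalling gene Stat2 rose by 0.89. Herc6 was the only member not called (19 CPM in host and 28.6 in leptomeningeal cells, adjusted p = 0.0565), although it was called higher in a fit of the 12 libraries of the 3 groups alone, in that of both groups alone, without the 3 shallow libraries, with the replicate number as a block, without host replicate 3 and without leptomeningeal replicate 4 (adjusted p = 0.0165 to 0.0371). Leptomeningeal replicate 3 was the highest of the 4 libraries for 21 of the 42 genes, against 2473 of all 10597 tested genes.

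Of 25 cytokine and NF-kB genes, 17 were higher (68%) and 4 lower (16%), against 24.1% and 22.5% of all genes. Il1b, which encodes interleukin-1 beta, was at 30.8, 25.9, 19.3 and 22.8 CPM in host and 1929, 1457, 1462 and 2609 in leptomeningeal cells (6.25, adjusted p = 3.13e-07). Il10, the anti-inflammatory cytokine, was at 0, 0, 0 and 0.67 and 43.6, 65.9, 58 and 74.7 CPM, a count ratio of 477 (95% interval 85.1 to 18910.3). Nfkbiz, an inducible NF-kB cofactor, was at 53.7, 45, 47.7 and 43.5 and 822, 831, 795 and 693 CPM (4.05, adjusted p = 1.41e-09). All 4 leptomeningeal libraries were above all host libraries for these genes, where 45.8% of all tested genes had no overlap in either direction. Tnfaip3, which encodes the NF-kB inhibitor A20, rose by 3.12, and Ptgs2, the inducible cyclooxygenase, by 5.03 on the log2 scale. Tnf changed less (84.3 ± 15.2 to 145 ± 12.1 CPM, 0.77, adjusted p = 0.00382) and was not called with library totals in place of composition scaling (adjusted p = 0.152). Csf1 and Il1a fell (-1.50 and -1.13).

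Immediate early genes, which cells switch on within minutes of a stimulus, were higher in leptomeningeal macrophages. Actinomycin D, an inhibitor of transcription, had been used during preparation, and its effect was not tested. Fos was at 404, 472, 515 and 319 CPM in host and 2538, 3416, 3783 and 3046 in leptomeningeal cells (2.90, adjusted p = 2.1e-09). Dusp1, a phosphatase that ends MAP kinase signals, was at 200.4, 358, 259.8 and 184 and 1441, 3039, 2438 and 1946 CPM (3.14, adjusted p = 1.1e-08). Ier2 was at 92.3, 121, 115 and 65.6 and 1079.9, 1324, 1067 and 874 CPM (3.45, adjusted p = 6.35e-13). Replicate 1 or 2 was the highest leptomeningeal library for 21 of the 24 genes of this list. Over all 10597 tested genes, replicate 1 was highest for 3121 and replicate 2 for 2925. Of the immediate early and heat shock genes tested, 18 of 24 were higher and 2 lower, against 24.1% and 22.5% of all genes. The lower pair were the inducible HSP70 genes, Hspa1a at 487, 519.8, 489 and 539 against 386, 209.7, 163 and 170.3 CPM (-1.13, adjusted p = 4.12e-05) and Hspa1b at 518, 578, 503 and 498 against 224, 56, 38.3 and 72 (-2.41, adjusted p = 0.000248), near-identical copies whose reads may be divided between them. The constitutive chaperone genes Hspa8 and Hsp90ab1 rose by 0.94 and 0.93. The wash from the brain surface and the further parenchymal digestion differ between the compartments, and the part of the preparation was not tested.

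Targets of p53, the DNA damage response factor, were lower for 15 (62.5%) and higher for 6 (25%) of 24, with a median of -0.92. Of all genes, 22.5% were lower and 24.1% higher. Cdkn1a, which encodes the cell cycle inhibitor p21, was at 1921, 1876, 2457 and 2045 CPM in host cells and 672, 725, 559 and 809.7 in leptomeningeal cells (-1.59, adjusted p = 3.71e-05). Phlda3, a p53-induced inhibitor of Akt, was at 48.7, 50.5, 49.5 and 46.2 and 5.62, 5.49, 1.91 and 5.38 CPM (-3.42, adjusted p = 1.96e-12). Bax, a pro-apoptotic pore protein, was at 345, 315, 365 and 266 and 119, 161, 130.1 and 143 CPM (-1.23, adjusted p = 1.05e-08). The groups did not overlap for any of the 3 genes, nor for 45.8% of all tested genes. Bbc3, which encodes PUMA, and Ccng1 fell too (log2 changes of -1.69 and -0.92). Btg2, which is also an immediate early gene, rose by 2.27 and Pmaip1, which encodes NOXA, by 2.65. Host microglia had been irradiated in place and donor cells had not, so origin, compartment and exposure cannot be told apart here. Cell cycle genes were higher for 10 of 15 (66.7%) and lower for 0. Their levels were low: Mki67, the proliferation antigen, was at 4.92, 7.69, 5.74 and 10.8 CPM against 0.716, 1.36, 1.4 and 0 (2.76, adjusted p = 0.000336), and Top2a at 13.6 ± 4.32 against 3.44 ± 0.859. Myeloid progenitors and lymphocytes also cycle, and their part was not tested.

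Lipid genes were led by Apoe, the lipid carrier apolipoprotein E, which rose from 3417, 3493, 3000.4 and 3576 to 47550.3, 78266, 69513 and 56819 CPM (4.22, adjusted p = 2.63e-15). Pltp, the phospholipid transfer protein, rose from 5.01, 3.18, 7.02 and 4.69 to 406, 392, 559.8 and 404 CPM (6.40, adjusted p = 4.4e-16), with replicate 3 above the others. The sterol exporter gene Abcg1 fell (-1.03 on the log2 scale), as did Mylip, an LXR-induced ubiquitin ligase (-1.94). Of 24 lipid genes, 11 were higher (45.8%) and 4 lower (16.7%), against 24.1% and 22.5% of all genes. Among iron and haem genes, 5 of 11 were higher (45.5%) and 1 lower (9.09%). Hmox1, which breaks down haem, rose from 73.7, 105, 79.3 and 69 to 277, 251, 204 and 257 CPM (1.58, adjusted p = 4.46e-10), the ferritin heavy chain gene Fth1 rose by 1.31 on the log2 scale, and Spic, a factor of iron-recycling macrophages, was at 28.1, 12.1, 15.9 and 16.2 CPM against 0, 0, 0.351 and 0.67. The exception was Lrp1, the receptor for haem bound to haemopexin (-1.22, adjusted p = 6.13e-09).

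TGF-beta pathway genes were lower for 10 (47.6%) and higher for 5 (23.8%) of 21, against 22.5% and 24.1% of all genes. Beside Tgfbr1, a homeostatic gene that fell from 1603, 1679, 1667 and 1588 to 462, 373, 319 and 354 CPM (-2.12, adjusted p = 5.19e-13), the inhibitory Smad7, the co-receptor gene Eng and the BMP receptor gene Bmpr1a fell, with log2 changes of -1.62, -2.24 and -3.37. Acvrl1, a receptor of the same superfamily, rose by 1.48. The ligand gene Bmp2 was at 45.7, 19.8, 32.5 and 23.6 CPM and at 0 in all host libraries.

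Receptors for complement, antibody and dying cells were mixed. Of 21 complement and Fc genes, 6 were higher (28.6%) and 5 lower (23.8%), near the shares of all genes (24.1% and 22.5%). With library totals in place of composition scaling, 10 were lower. C1qa and C1qb, chains of the first complement component, were at 11182 ± 611 and 16973 ± 1041 CPM in host cells and at 9688 ± 1106 and 12689 ± 3892 in leptomeningeal cells, and were not called (adjusted p = 0.354 and 0.0747). C1qb was called lower by DESeq2, in the fit of the 12 libraries alone, without the 3 shallow libraries and without leptomeningeal replicate 2 (adjusted p = 0.017 to 0.0437), and both were with library totals in place of composition scaling (adjusted p = 0.00015 and 1.22e-05). C4b rose from 14.3, 21.4, 33.4 and 14.1 to 341, 335, 507 and 374 CPM (4.15, adjusted p = 3e-09), the neonatal Fc receptor gene Fcgrt rose by 1.25, and Itgam, which encodes CD11b, fell (-1.38 on the log2 scale). Among 12 genes for the uptake of apoptotic cells, 4 were higher (33.3%) and 5 lower (41.7%). The TAM kinases moved apart: Axl rose from 61.6, 92.3, 79.3 and 60.3 to 423, 615, 558 and 433 CPM (2.77, adjusted p = 1.23e-15), and Mertk fell from 735, 693, 737 and 808 to 420.2, 291, 357 and 297 (-1.12, adjusted p = 2.79e-06). Their ligands did so as well, with Gas6 higher (1.31) and Pros1 lower (-2.31).

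Of 18 integrin and adhesion genes, 10 were higher (55.6%) and 7 lower (38.9%), against 24.1% and 22.5% of all genes. Itga4, a subunit of the VCAM1 receptor VLA-4, was at 0.716, 1.36, 1.76 and 2.68 CPM in host and 89.9, 94.4, 89.3 and 126 in leptomeningeal cells (5.85, adjusted p = 1.32e-19), and Vcam1 itself rose from 40.8, 50, 48.8 and 38.8 to 462, 427, 389.6 and 431 (3.24, adjusted p = 6.96e-16). The tetraspanin genes Cd9 and Cd81 fell, with log2 changes of -2.78 and -1.59, as did the junctional gene Jam3 (-4.21). Of 24 disease-associated microglia genes, 11 were higher (45.8%) and 8 lower (33.3%). Lyz2, the lysozyme of myeloid cells, rose from 654, 785, 693 and 652 to 9149.6, 16619, 13428 and 11414 CPM (4.18, adjusted p = 3.74e-16) and Cybb, the NADPH oxidase subunit, from 15.7, 21.8, 15.1 and 17.4 to 589.5, 679.8, 657 and 623 (5.17, adjusted p = 1.01e-22), genes that neutrophils and monocytes also express. Trem2, the lipid receptor of the same list, fell from 3219, 3351, 3167 and 3004 to 1001, 1168, 967 and 934 CPM (-1.65, adjusted p = 7.61e-10). Cathepsin and lysosome genes were lower for 10 (43.5%) and higher for 3 (13%) of 23, and lower for 17 with library totals in place of composition scaling. Ctsd, the aspartic protease cathepsin D, fell from 9717, 10788, 9192 and 10154 to 3658, 2701, 3180.4 and 2847 CPM (-1.69, adjusted p = 1.06e-09), and Ctsc, which activates granule proteases, rose by 2.05.

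Monocyte-derived microglia were then placed on this axis. They share both the compartment and the preparation of host microglia, so compartment and preparation cannot be told apart in the positions. The comparison of monocyte-derived microglia with leptomeningeal macrophages uses the same leptomeningeal libraries, and the comparison with host microglia the same host libraries, so the positions describe these libraries and are not independent of the differences above. For each gene called at least 2-fold, the position is the share of the log2 difference that lay between leptomeningeal macrophages (0%) and monocyte-derived microglia, with host microglia at 100%. For genes at 0 in all host libraries, the fitted difference and so the position depend on the prior count. Over the 1078 lower genes the median position was 47.9% (quartiles 27.2 to 70.9), and over the 1587 higher genes 53.2% (25.8 to 80). Between monocyte-derived microglia and leptomeningeal macrophages, 35.3% of genes were called, 16.3% higher and 19% lower in the microglia. Between monocyte-derived and host microglia, 30.2% were called.

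Among homeostatic genes, 31 of 35 were higher and 0 lower in monocyte-derived microglia than in leptomeningeal macrophages, against 16.3% and 19% of all genes. Their median position was 60.2%. P2ry12 was at 1592, 1466, 1514 and 1729 CPM in monocyte-derived microglia (2.12 above leptomeningeal and -1.57 against host cells on the log2 scale). Sparc was at 1809, 1682, 1653 and 1650.5 CPM (2.79 and -1.83). All 4 libraries lay between the other groups for both genes. Sall1, at 30, 25.7, 25.9 and 43.9 CPM, covered 39.21% of the distance, Slc2a5 40.9% and Jam2, a junctional protein, 24.4%. Some members were near the leptomeningeal level: Ltc4s, the leukotriene C4 synthase, was at 489 ± 44.7 CPM against 481 ± 38.2 in leptomeningeal and 1571 ± 153 in host cells, and Gpr84, a receptor for medium-chain fatty acids, at 77.3 ± 22.6 against 74.1 ± 13.9 and 393 ± 41.9. Fcrls, at 2553 ± 60.6 CPM, was not called against host cells (adjusted p = 0.0972). Outside this list, Cdk5r1, the activator gene of cyclin-dependent kinase 5 and named for its large shift towards the host level, was at 87, 71.2, 75 and 73.4 CPM against 98.1, 68.2, 76.5 and 88.4 in host and 16.2, 7.69, 5.74 and 11.4 in leptomeningeal cells.

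Border macrophage genes that were higher in leptomeningeal cells lay at a median of 48.9%. Of the list, 31 of 41 were lower in monocyte-derived microglia than in leptomeningeal macrophages, against 19% of all genes. Folr2 was at 12.1, 18.2, 9.81 and 12 CPM in monocyte-derived microglia, 73.62% of the way to the host level, and Fcna, a ficolin, at 0, 0, 1.4 and 0. Mrc1 stayed at 606, 609, 619 and 554 CPM (18.16%), and Dab2, an endocytic adaptor, at 399, 358, 386 and 417 (14.84%). Slc40a1, which had been lower in leptomeningeal cells, was at 152, 132, 139 and 152 CPM, above every host library, a difference that was not called (adjusted p = 0.21). MHC class II genes that were higher lay at 42.5%: H2-Aa was at 928, 1527, 1637 and 1322 CPM (-3.71 against leptomeningeal and 5.12 above host cells) and Cd74 at 873, 1371, 1410.4 and 1223 (-3.25 and 4.62). H2-DMb1 was at 156, 180.4, 204 and 191 CPM, within the spread of the host libraries.

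Immediate early genes that were higher in leptomeningeal cells lay near the host level, with a median position of 96.7% for the list. Both microglia groups had the digestion and leptomeningeal cells the wash, and the part of the preparation was not tested. Egr1 was at 342, 315, 357 and 285 CPM and Ier2 at 87, 82.8, 96.7 and 79.8 in monocyte-derived microglia. Hspa1b, at 1147, 847, 1104 and 994 CPM, was higher than in leptomeningeal macrophages (3.38, adjusted p = 2.6e-05), and its difference from host microglia was not called (0.96, adjusted p = 0.0787). Among members at least 2-fold higher in leptomeningeal cells, 15 cytokine and NF-kB genes lay at a median of 70.1%, chemokine ligands at 51.6% and interferon response genes at 48.8%. The cytokine genes at least 2-fold lower there, Csf1 and Il1a, lay at -83.64% and -15.52%, on the far side of the leptomeningeal level from host cells. Markers of other cells had moved too: the higher members of the neutrophil list lay at 68.4%, fibroblast and mural genes at 85.2% and T and NK cell genes at 54.1%. Several neutrophil and fibroblast genes were at 0 in all host libraries, so their positions depend on the prior count. Camp, placed at 66.7%, had means of 328 CPM in leptomeningeal macrophages, 1.47 in monocyte-derived microglia and 0 in host cells. The part of these markers in the positions of the other lists was not tested. Isg15 was at 61.7, 62.9, 69.4 and 59.1 CPM, 96.32% of the way, whereas Bst2, which tethers virions to the cell surface, was at 1699.8, 1713, 1832 and 1627 CPM, -18.22%.

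Other genes differed from host cells in both monocyte-derived groups, with shifts in the parenchyma that went either way or were not called. Ms4a genes lay at a median of 10.9% with quartiles of -12.7 to 37.6. Of the 8, 4 were lower and 2 higher in monocyte-derived microglia than in leptomeningeal macrophages, against 19% and 16.3% of all genes. Among the lower, Ms4a6d was at 261, 286, 241 and 257 CPM against 358, 462, 454 and 401 in leptomeningeal and 155, 157, 159 and 187 in host cells (-0.68, adjusted p = 0.000215 against leptomeningeal cells), and Ms4a4b lay at 33.31%. Ms4a7 was higher in monocyte-derived microglia than in leptomeningeal macrophages (0.70, adjusted p = 0.00232), as were Ms4a14 (135, 154, 144 and 135 CPM, 1.27, adjusted p = 1.58e-05), the cathepsin E gene Ctse (152, 156, 153 and 148 CPM, 0.92, adjusted p = 1.12e-05) and Vcam1 (607, 795, 673 and 640.1 CPM, 0.67, adjusted p = 0.00263). These last 4 genes lay farther from the host level in the parenchyma. Clec12a was at 352, 350.1, 338 and 340 CPM, Itga4 at 95.1, 92.7, 102 and 84.6 and Cybb at 638, 692, 687 and 589, with log2 differences from leptomeningeal macrophages of -0.098, -0.093 and 0.033 (adjusted p = 0.688, 0.677 and 0.882). Apoe, at 80598, 80967, 88566 and 89626 CPM, was 0.43 above leptomeningeal macrophages (adjusted p = 0.161).

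p53 targets at least 2-fold lower in leptomeningeal cells lay at a median of -18.6%, beyond the leptomeningeal level, and the 4 at least 2-fold higher lay at 54.1%. Cdkn1a was at 191, 180.4, 174 and 197 CPM in monocyte-derived microglia, below every leptomeningeal library (-1.90, adjusted p = 1.22e-05) and every host library (-3.48, adjusted p = 3.98e-09). Phlda3 was at 3.46, 0.828, 2.8 and 3.99 CPM and Bax at 129, 127, 146 and 153, against leptomeningeal means of 4.6 and 139 (adjusted p = 0.304 and 0.982).

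**Figure D4:**
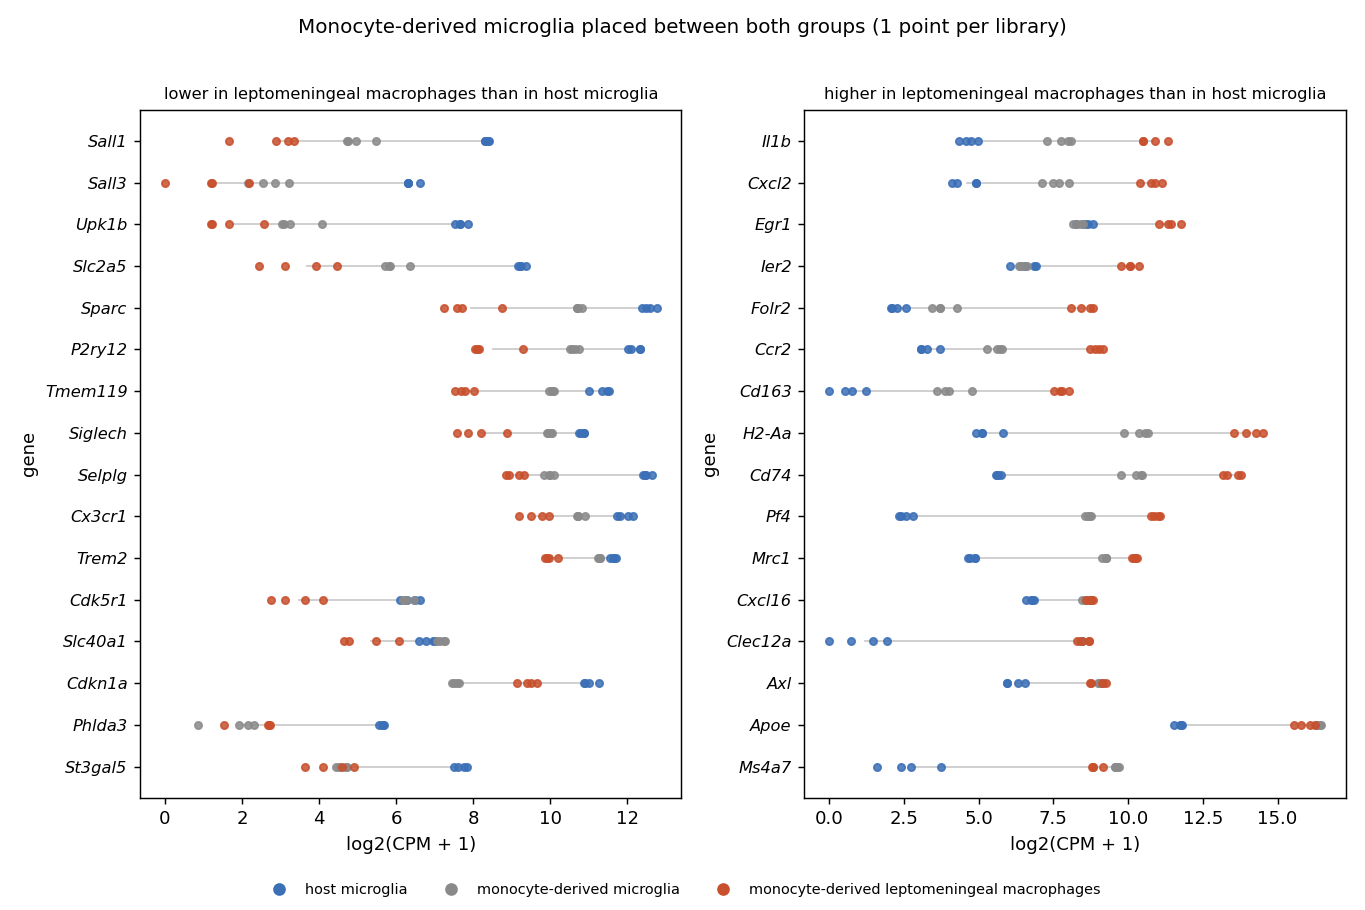
log2(CPM + 1) of 32 genes in each library of host microglia, monocyte-derived microglia and leptomeningeal macrophages, for genes lower (left) and higher (right) in leptomeningeal macrophages than in host microglia. The gray points lie between the other groups for P2ry12, Sparc and H2-Aa, near the host points for Egr1, Ier2 and Slc40a1, near the leptomeningeal points for Clec12a and Axl, and outside both for Cdkn1a and Ms4a7.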

How the data were processed

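RNA of sorted brain macrophages was measured in 18 libraries, of which 8 form the comparison and 4 more are placed on its axis. The authors deposited UMI counts per gene in 1 table, made with bulk MARS-seq per the labels' protocols, on the genome build mm10 per the submitters' processing notes. Which aligner, counter and gene filter were used is not given in the sources used here. Columns without scaling hold whole-number counts with a different total in each library, and scaled columns were not used. Of 20 raw libraries, 2 matched no sample label and entered no step. The gene lists and their members were chosen with earlier results of these data known.

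Of 13043 genes, 10597 were kept by filterByExpr in edgeR 4.0.16 under R 4.3.3 (with limma 3.58.1). All 18 libraries, 5 groups, were fitted in 1 robust quasi-likelihood model with TMM scaling and a coefficient per group, so that all share 1 estimate of the spread (common biological coefficient of variation 0.161). Tests were two-sided, p-values were adjusted over the 10597 genes by the Benjamini-Hochberg method, and genes under 0.05 were called. CPM are counts scaled to 1e6 per TMM-scaled library. A count of 3 corresponded to 1.05 to 3.29 CPM in the 12 libraries described. Against a group without counts, folds are lower bounds that take 3 counts over the group. With 1 to 3 counts, count ratios carry a 95% exact (Clopper-Pearson) interval. Intervals and floors cover counting error only.

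Named genes were the called genes with the 10 largest increases and 10 largest decreases, provided the higher group reached 50 CPM and libraries did not overlap, with predicted genes, pseudogenes and mitochondrial genes left out. To these came up to 4 members of each of 39 lists with the smallest p and up to 2 called against the direction of their list, 8 genes in each direction with the largest shift towards the host level, up to 5 in each direction away from it, and a fixed set of markers. Not all of them are described, and other list members in the text were chosen after their values were seen. Alternatives were other scalings, DESeq2 1.42.0, no filter, fewer libraries, a replicate block and leaving out each library. In simulated counts of 10597 genes for this comparison, 67, 65 and 68 genes were changed by 1, 2 and 3 on the log2 scale. Of these, 70.1%, 92.3% and 98.5% were called in the right direction, and 17 unchanged genes were called too. The changed genes were drawn only from genes above a minimum mean level, so these shares do not cover genes near the floor. Far fewer genes were changed there than the 46.6% called in the data, so the shares cannot be carried over to this comparison. Replicates differed by more than counting noise (chi-square per degree of freedom 1.44 to 7.66). The largest values, 7.66, 7.66 and 5.44, were those of leptomeningeal replicate 1 with the others of its group. The other leptomeningeal pairs had 3.22 to 3.80. Such values cannot tell separate mice from technical copies, and each library entered the fit on its own. Promoters are from RefSeq (GRCm38.p6) and gene positions from GENCODE vM21.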

Additional observations from a re-analysis of the deposited data

Results flagged for a closer look

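Among the genes described above, 26 sets of 4 libraries held a single library far from the other 3 by Dixon's ratio, out of 451 sets checked. Chance alone gives about 1 in 20 of such sets, so single cases carry little weight, and no explanation was tested. In leptomeningeal macrophages, replicate 1 was above the other 3 libraries for Adgrg1 (73.8 CPM against 19.8 to 22.2), P2ry12 (626 CPM against 265 to 284) and Smad7 (64.6 CPM against 32.5 to 37.3). In leptomeningeal macrophages, replicate 2 was above the other 3 libraries for Ms4a7 (567 CPM against 438 to 458). In leptomeningeal macrophages, replicate 2 was below the other 3 libraries for Cd93 (154 CPM against 216 to 221). In leptomeningeal macrophages, replicate 3 was above the other 3 libraries for Eng (63.1 CPM against 31.9 to 34.3) and Pltp (559.8 CPM against 392 to 406). In leptomeningeal macrophages, replicate 4 was above the other 3 libraries for Itga4 (126 CPM against 89.3 to 94.4) and Lyve1 (327 CPM against 226 to 234). In host microglia, replicate 1 was above the other 3 libraries for Ctss (10800 CPM against 9112 to 9328) and Sall3 (96.6 CPM against 77.9 to 78.4). In host microglia, replicate 1 was below the other 3 libraries for Gas6 (193 CPM against 214 to 218). In host microglia, replicate 2 was above the other 3 libraries for Eng (215 CPM against 189.7 to 191). In host microglia, replicate 3 was above the other 3 libraries for H2-Aa (55.8 CPM against 29.5 to 33.6). In host microglia, replicate 4 was above the other 3 libraries for Ms4a6d (187 CPM against 155 to 159). In monocyte-derived microglia, replicate 1 was above the other 3 libraries for Ttr (157 CPM against 4.9 to 14.4). In monocyte-derived microglia, replicate 1 was below the other 3 libraries for Fcgrt (46.1 CPM against 52.7 to 53.8). In monocyte-derived microglia, replicate 2 was above the other 3 libraries for Lyz2 (4227 CPM against 3762 to 3830) and Upk1b (15.7 CPM against 7.18 to 8.41). In monocyte-derived microglia, replicate 3 was above the other 3 libraries for Cd83 (266 CPM against 218 to 225), Ctsc (1384 CPM against 1253 to 1257) and Igkc (16.1 CPM against 2.88 to 3.99). In monocyte-derived microglia, replicate 4 was above the other 3 libraries for Ccr1 (223 CPM against 145 to 158), Cx3cr1 (1895 CPM against 1668 to 1691), Ecscr (60.7 CPM against 39.8 to 43) and S100a8 (13.6 CPM against 2.1 to 3.31).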

How the results depend on the processing

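The 4941 genes called between leptomeningeal macrophages and host microglia became 4683 with DESeq2, 4947 with median-ratio size factors, 5655 without the filter on low counts, 5728 with library totals, 5918 without the 3 shallow libraries of other groups and 4290 to 4630 when single host or leptomeningeal libraries were left out, all within 1.5 times. Every count of called genes for the comparisons of monocyte-derived microglia also stayed within 1.5 times. With library totals, 3 list counts moved further: costimulatory genes higher to 3, complement and Fc genes lower to 10, and cathepsin and lysosome genes lower to 17. Of the other alternatives for list counts, none moved beyond 1.5 times.

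Replicate numbers were not used as pairs in the main fit. Deviations of same-numbered host and leptomeningeal libraries correlated at -0.0076 to 0.0415, and 1 of 4 host libraries matched its own number best. Same-numbered libraries of monocyte-derived microglia and leptomeningeal macrophages correlated at 0.0257, 0.0108, 0.0556 and 0.0503. Against host libraries, monocyte-derived microglia had values of -0.0416, -0.023, 0.0213 and -0.0301. Values this small cannot decide whether libraries of the same number share a mouse. A replicate block called 4714 genes (2459 higher and 2255 lower) and 2645 at least 2-fold.

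Over the genes described and all alternatives, 2694 values kept their direction and side of the threshold, 7 lost the call, 19 gained a call and 13 changed sign. Sign changes concerned 4 genes that were not called. Cd86 was at -0.0048 with median-ratio size factors, -0.33 with library totals, -0.012 without the filter, -0.0049 with DESeq2, -0.0046 with the replicate block and between -0.068 and 0.071 without single libraries. Cd80 lay between -0.22 and 0.046 without single libraries, with values of 0.032 and 0.046 of the opposite sign. With library totals Ccl3 was at -0.037 and Spi1 at -0.0062. Calls were lost for Ctss, Csf1r and Tnf. The cause was not tested. Depth limits low genes: a level under 1.05 to 3.29 CPM rests on fewer than 3 counts in a library.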

Other observations

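Siglecs and enzymes of sialic acid, the sugar that these receptors recognise, were lower in leptomeningeal macrophages for 6 and higher for 2 of 13 tested genes. These are 46.2% and 15.4%, against 22.5% and 24.1% of all genes. Siglecf was at 45.1, 50.9, 43.5 and 38.2 CPM in host and 2.81, 1.1, 0.638 and 5.38 in leptomeningeal cells (-4.05, adjusted p = 6.81e-13). St3gal5, the synthase of the ganglioside GM3, was at 227, 215, 192 and 180.2 and 28.8, 23.1, 11.5 and 16.2 CPM (-3.38, adjusted p = 3.01e-11). Cmah, which makes the N-glycolyl form of sialic acid, was at 46.4, 32.9, 33.8 and 36.3 CPM against 0, 0.455, 0 and 0, a count ratio of 299 (95% interval 53.1 to 11869.6). Monocyte-derived microglia had St3gal5 at 24.8, 20.7, 21.7 and 25.5 and Cmah at 62.8, 49.7, 57.5 and 48.7 CPM.

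Toll-like receptors and their adaptors were lower for 4 (28.6%) and higher for 1 (7.14%) of 14, against 22.5% and 24.1% of all genes. Tlr3, which senses double-stranded RNA, fell from 42.2, 47.3, 52.7 and 62.3 to 16.9, 9.88, 8.93 and 8.08 CPM (-2.21, adjusted p = 3.04e-09), and Tlr1, a partner of TLR2, rose by 0.83 on the log2 scale. Among 19 glycolytic genes, 6 were higher (31.6%) and 5 lower (26.3%), near the shares of all genes. Ldhb, a lactate dehydrogenase subunit, fell from 516, 436, 496 and 525 to 62.5, 39.5, 51 and 45.1 CPM (-3.30, adjusted p = 1.33e-17), and Pfkp, the platelet-type phosphofructokinase, rose from 2.15, 1.82, 3.86 and 4.02 to 33, 60.4, 32.5 and 49.1 (3.79, adjusted p = 1.23e-12).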
